A study of Mus musculus with 24 samples.

Results

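Haematopoietic stem cells sit at the top of the blood lineage. They divide rarely and give rise to multipotent progenitors (MPP), which divide more and lose the capacity for long-term self-renewal. A set of genes is known to be most active in long-term stem cells and less so in progenitors, and is often used to mark them. The 10 genes described here belong to that set and were chosen by name, as genes known to be enriched in long-term stem cells, from the 23364 genes with counts. They are Procr, Ifitm1, Ifitm3 and Pdzk1ip1, whose products sit in membranes, Fgd5 and Ctnnal1, which act on signalling and the cytoskeleton, the enzyme Sult1a1, the secreted chaperone Clu, the chromatin reader Mllt3 and the RNA-binding protein Msi2. All 10 of the 10 passed the filter on low counts.

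The genes were followed in 24 RNA sequencing libraries of bone marrow cells of C57BL/6 mice aged 8 to 12 weeks, males and females together. Cells were lineage-negative, Kit-positive, Sca1-positive, CD150-positive and Flt3-negative, and were divided into HSC (negative for CD34 and CD48), MPP1 (positive for CD34 only) and MPP2 (positive for both). KO samples came from Mysm1 fl/fl CreERT2 mice and Het samples from Mysm1 +/fl CreERT2 mice. Both received 8 doses of tamoxifen at 0.15 mg/g over 16 days, which removes exon 3 of each floxed allele of Mysm1, a histone H2A deubiquitinase. Sham samples came from Mysm1 fl mice given corn oil, and the labels do not state whether these carried the Cre. Each population had 3 libraries of KO, 3 of Het and 2 of Sham. Each library pooled cells of several mice, so its p-values speak of the spread between pools. The Het mice keep an intact Mysm1 allele and share the tamoxifen and the Cre with KO, so KO against Het was the main comparison. The question was whether the stem cell gene programme differs in cells that have lost Mysm1.

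Library totals ran from 18823971 to 53196624 counts. Between 15740 and 21150 genes were detected per library, with the fewest in HSC KO library 1 (15740) and HSC Het library 2_3 (15932). Counts over the whole Mysm1 gene ranged from 76.7 to 137.6 CPM (counts relative to the scaled library size) over the 24 libraries and did not pass the test in any comparison, with a KO against Het log2 change of -0.18 ± 0.144 (approximate SE, adjusted p = 0.635, edgeR) in HSC. Whole-gene counts take in all exons other than the deleted one, so they do not check the deletion. Cd48 stood at 0.626 to 2.28 CPM in the HSC and MPP1 group means and at 18.5 to 42.0 in MPP2, and Cd34 at 75.2 to 88.6 in HSC and 132 to 164 in MPP1. In MPP2, Cd34 stood at 194 in KO, 144 in Het and 77.7 in Sham, so the Sham MPP2 mean lay below the Sham HSC mean (88.6), against the labelled gate. Flt3, which the gate excludes as a surface protein, reached 98.0 CPM in a single MPP2 Het library, against 4.50 in the lowest of the 3. Slamf1, the gene of CD150, stood in MPP2 at 37.4 to 51.3 CPM in KO and 20.2 to 27.5 in Het. Ly6a, a gene of Sca1, stood there at 4.66 to 8.48 and 1.06 to 5.04. With Kit these make 6 sort genes, of which 4 lay above 0 and 2 below in MPP2 KO against Het. By edgeR 0 passed, and 2 had an unadjusted p under 0.05, as did 5.63% of all genes. Their part in the member levels was not tested.

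Promoter sequence is given for the 3 genes that passed the test somewhere, Sult1a1, Ifitm1 and Msi2, and for Ifitm3, the near relative of Ifitm1 that did not. Each is the part of the RefSeq promoter (250 bases before the RefSeq start of transcription, table build GRCm38.p6) that lies outside annotated exons. Each was found once, by exact match, in mm9, whose coordinates follow. Capitals mark CG dinucleotides, the sites of DNA methylation. They lie at chr7:133819947-133820182 (minus strand) for Sult1a1, chr7:148153725-148153926 (plus strand) for Ifitm1, chr7:148196670-148196893 (minus strand) for Ifitm3 and chr11:88579592-88579765 (minus strand) for Msi2. The RefSeq start of Ifitm1 lies 855 bases inside its gene in the annotation used, and that of Msi2 lies 236 bases inside.
Sult1a1: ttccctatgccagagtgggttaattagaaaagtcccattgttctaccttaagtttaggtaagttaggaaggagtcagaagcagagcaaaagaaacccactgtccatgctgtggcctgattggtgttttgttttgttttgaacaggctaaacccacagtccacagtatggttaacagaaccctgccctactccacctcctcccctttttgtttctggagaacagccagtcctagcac
Ifitm1: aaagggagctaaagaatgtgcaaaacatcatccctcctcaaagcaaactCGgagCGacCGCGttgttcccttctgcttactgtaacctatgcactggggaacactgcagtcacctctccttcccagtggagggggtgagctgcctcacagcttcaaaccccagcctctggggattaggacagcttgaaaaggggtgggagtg
Ifitm3: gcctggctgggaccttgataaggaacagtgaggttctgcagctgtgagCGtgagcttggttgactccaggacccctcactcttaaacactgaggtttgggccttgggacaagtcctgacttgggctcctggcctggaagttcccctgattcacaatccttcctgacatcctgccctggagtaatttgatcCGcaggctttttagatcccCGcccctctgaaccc
Msi2: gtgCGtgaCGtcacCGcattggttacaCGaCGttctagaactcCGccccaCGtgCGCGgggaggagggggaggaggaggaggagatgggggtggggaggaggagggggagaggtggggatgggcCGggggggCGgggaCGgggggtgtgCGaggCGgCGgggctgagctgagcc

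The printed Sult1a1 stretch held 0 CG dinucleotides, that of Ifitm1 held 4, that of Ifitm3 held 3 and that of Msi2 held 15. Over the whole 250 bases, Sult1a1 again had 0, and 7.87% of the 32851 RefSeq promoters of that length had as few. The listed promoters of Msi2 had 29 or 30 and that of Fgd5 had 31, where the median was 6 and 94.1% of promoters had at most 29. Procr had 13, Ctnnal1 18, Pdzk1ip1 3, and the pair of promoters of Mllt3 had 23 and 4. Clu had no entry. The 12 promoters of the other 9 genes were searched on both strands for the core of the interferon-stimulated response element (in 2.98% of all promoters), the GATA motif AGATAA (9.99%), the RUNX motif TGTGGT (14%), the ETS motif CCGGAA (12%) and TATAAA (12.4%). These motifs had 0 matches in the 12 windows.

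In mm9, Ifitm1 (chromosome 7, 148153120 to 148155724) and Ifitm3 (chromosome 7, 148195485 to 148196669) are neighbours of Ifitm2, Ifitm5 and Ifitm6, with 39760 bases between the pair. Sult1a1 lies elsewhere on chromosome 7 (133816379 to 133819946), Mllt3 (87415829 to 87679268), Pdzk1ip1 (114761313 to 114766504) and Ctnnal1 (56823807 to 56878060) on chromosome 4, Procr on chromosome 2 (155576853 to 155581207), Fgd5 on 6 (91928872 to 92025998), Clu on 14 (66587320 to 66600385) and Msi2 on 11 (88152884 to 88579827). Sult1a1 shares 61 exon bases with Ccdc101 on the opposite strand, and the strand setting of the counting is not given in the sources used here. Ccdc101 stood at 23.3 CPM in HSC KO and 23.2 in HSC Het.

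Among Het libraries the 10 genes differed widely in level. Per kilobase of exon, the mean in Het HSC ran from 125.7 CPM per kb for Ifitm3, 88.6 for Ifitm1, 60.3 for Procr and 59.9 for Msi2 over 34.4 for Pdzk1ip1, 30.4 for Sult1a1 and 22.3 for Mllt3 to 18.0 for Fgd5, 17.7 for Ctnnal1 and 8.85 for Clu. Ifitm3 was thus above 98.2% of the genes tested, and Clu above 71.7%. In Het MPP2 the order changed. Ifitm3 (50.6 CPM per kb) and Msi2 (35.2) stayed on top, and Procr (1.80), Fgd5 (0.942) and Sult1a1 (0.766) were the lowest.

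The members were listed as enriched in stem cells, so their order over the populations is given as a description, without a test. The mean level fell from HSC over MPP1 to MPP2 for 10 of the 10 genes in Sham, 9 in Het and 8 in KO, where 27.7%, 26.3% and 30.1% of all genes tested did so. Every HSC library stood above every MPP2 library for 10 genes in Sham (33.2% of all genes), for 9 in Het (11.9%) and for 8 in KO (10.1%). The exception in Het was Clu, and those in KO were Clu and Msi2. HSC and MPP1 were closer. Every HSC library was above every MPP1 library for 7 genes in Sham (12.4%), but in Het for Sult1a1 alone (3.82%) and in KO for Fgd5, Sult1a1 and Mllt3 (2.71%). Every MPP1 library was above every MPP2 library for 10 genes in Sham (39.5%), 9 in Het (15.1%) and 8 in KO (9.87%).

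The ratio of the mean level in HSC to that in MPP2 was smaller in KO than in Het for 8 of the 10 genes. It was 33.5 in Het and 5.94 in KO for Procr, 39.6 and 18.3 for Sult1a1, 19.1 and 7.89 for Fgd5, and 10.7 and 2.51 for Ifitm1. For Ifitm3 it was 2.48 in Het and 1.15 in KO, and for Msi2 1.70 and 1.07, so that the KO means of these genes were nearly level between HSC and MPP2. Mllt3 (4.73 and 2.60) and Pdzk1ip1 (5.19 and 2.66) lay between. Clu (1.56 in Het and 1.65 in KO) and Ctnnal1 (1.69 and 1.87) had small ratios in both. The Sham ratios were 50.2 for Procr, 50.6 for Sult1a1, 20.8 for Fgd5, 10.8 for Ifitm1, 2.57 for Ifitm3 and 2.30 for Clu, all above Het. Below Het were those of Mllt3 (3.54), Pdzk1ip1 (4.69), Msi2 (1.61) and Ctnnal1 (1.61). Whether the ratio differs between KO and Het is the difference of the KO effect between MPP2 and HSC, whose test is given further on. That difference lay above 0 for 8 of the 10 genes and for 43.6% of all genes tested. In these bulk samples fewer cells of a type and less RNA per cell cannot be told apart.

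**Figure D1:**
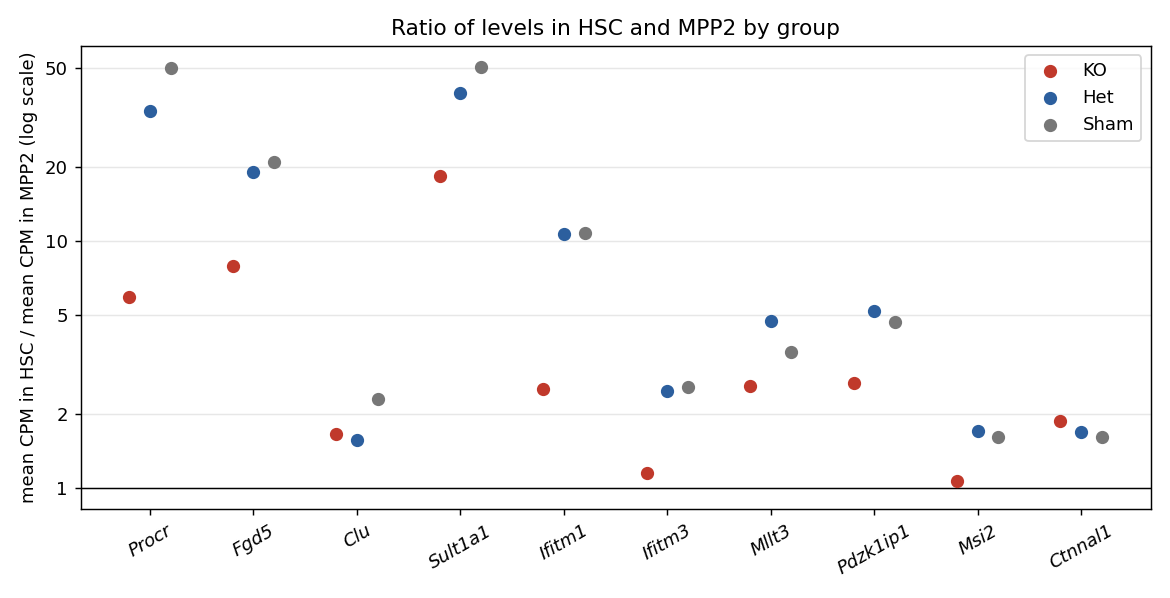
Ratio of the mean CPM in HSC to the mean CPM in MPP2 (log axis) for each of the 10 genes, with 1 point for each of KO, Het and Sham. The KO point lies below the Het point for every gene but Clu and Ctnnal1, with the widest gap for Procr (33.5 in Het, 5.94 in KO).

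Among HSC libraries 2 of the 10 genes fell in KO against Het and 0 rose. They were Sult1a1, a sulfotransferase of phenolic compounds, at 0.213 times its Het level, and Ifitm1, an interferon-induced membrane protein that hinders entry of viruses, at 0.273 times. Of all 21456 genes tested, 0.615% passed the adjusted threshold of 0.05 in this comparison, 0.294% with a lower and 0.322% with a higher level. The log2 change was below 0 for 7 of the 10 genes, with a median of -0.56, against 0.03 over all genes tested. The groups did not overlap for 4 of the 10, Procr, Fgd5, Sult1a1 and Ifitm1, all lower in KO, where 4.48% of all genes were lower without overlap. None of the 10 was higher without overlap, as were 7.16% of all genes.

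Sult1a1 stood in HSC at 7.97, 11.6 and 7.05 CPM in the KO libraries (1, 2_3 and 4 in this order throughout), at 29.5, 37.5 and 57.7 in Het and at 62.2 and 51.9 in Sham (2_3 and 4). The highest KO library was below the lowest Het library. Against Het, KO had a log2 change of -2.23 ± 0.393 (SE, adjusted p = 0.00938, edgeR). Ifitm1 stood at 21.5, 36.8 and 41.7 CPM in KO, 88.1, 141 and 137 in Het and 157 and 126 in Sham. Again all KO libraries lay under all others, with a log2 change of -1.87 ± 0.359 (adjusted p = 0.0254, edgeR). Without HSC KO library 1, a library with few detected genes, the adjusted p was 0.0901 for Sult1a1 (log2 change -2.16) and 0.152 for Ifitm1 (-1.64). Without HSC Het library 2_3, the other such library, it was 0.0510 and 0.128, without both 0.279 (-2.23) and 0.417 (-1.52), and without HSC KO library 2_3 it was 0.0222 and 0.0583.

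Procr and Fgd5 are membrane-bound and signalling markers used to isolate or report stem cells. Procr, the endothelial receptor of protein C, stood in HSC at 40.2, 49.9 and 57.7 CPM in KO, 65.9, 114 and 92.1 in Het and 66.1 and 73.0 in Sham. All KO values were below all others, but the log2 change of -0.88 ± 0.432 against Het did not pass (adjusted p = 0.362, edgeR). Fgd5, a guanine nucleotide exchange factor, stood at 46.0, 56.5 and 46.7 in KO, 72.4, 139.8 and 91.0 in Het and 115 and 90.9 in Sham. Its log2 change of -1.02 ± 0.359 did not pass either (adjusted p = 0.199, edgeR). A fit of the HSC libraries alone called both genes (adjusted p = 0.0151 for Fgd5), which made 4 of 10, and DESeq2 called Fgd5 (adjusted p = 0.048). Over its alternatives the adjusted p of Fgd5 lay between 0.0151 and 0.789. HSC Het library 1 was below its group mean for 10 of the 10 genes and the lowest of the 3 for 9. Erythroid markers summed to 910.4 CPM in it, and to 629 and 735.3 CPM in Het libraries 2_3 and 4. Of these markers Car2 alone had a mean of 684 CPM of the plain library total in HSC Het and 725 in Sham. HSC Het library 1 also had the highest sums of the 3 for 17 progenitor genes (2312 CPM) and for stroma and endothelium markers (133.4). Its neutrophil sum (30.7) was the lowest. The part of these sums in its member levels was not tested. Without HSC Het library 1, Sult1a1, Ifitm1, Ifitm3 and Mllt3 passed.

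The other members changed less in HSC. Ifitm3, the relative of Ifitm1, stood at 68.9, 55.0 and 58.0 CPM in KO, 48.4, 103 and 93.4 in Het and 98.6 and 81.3 in Sham, so the low Het library 1 overlapped KO (log2 change -0.43, adjusted p = 0.320, edgeR). Mllt3, a YEATS-domain reader of acetylated histones that recruits the elongation machinery, stood at 143 to 187 in KO and 154 to 311 in Het (-0.54, adjusted p = 0.269). Pdzk1ip1, a small membrane protein also called MAP17, stood at 50.5 to 84.3 in KO and 65.5 to 125 in Het (-0.59, adjusted p = 0.358). Msi2, a translational regulator of the Musashi family, was at 445 to 470.1 in KO and 348 to 496 in Het (0.06, adjusted p = 0.943). Clu, a secreted chaperone, was at 12.3 to 21.7 in KO and 13.0 to 20.5 in Het (0.14, adjusted p = 0.972). Ctnnal1, a relative of alpha-catenin, stood at 91.8, 70.9 and 100.5 in KO and 55.3, 80.2 and 60.0 in Het, with KO libraries 1 and 4 above all Het libraries (0.43, adjusted p = 0.355).

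**Figure D2:**
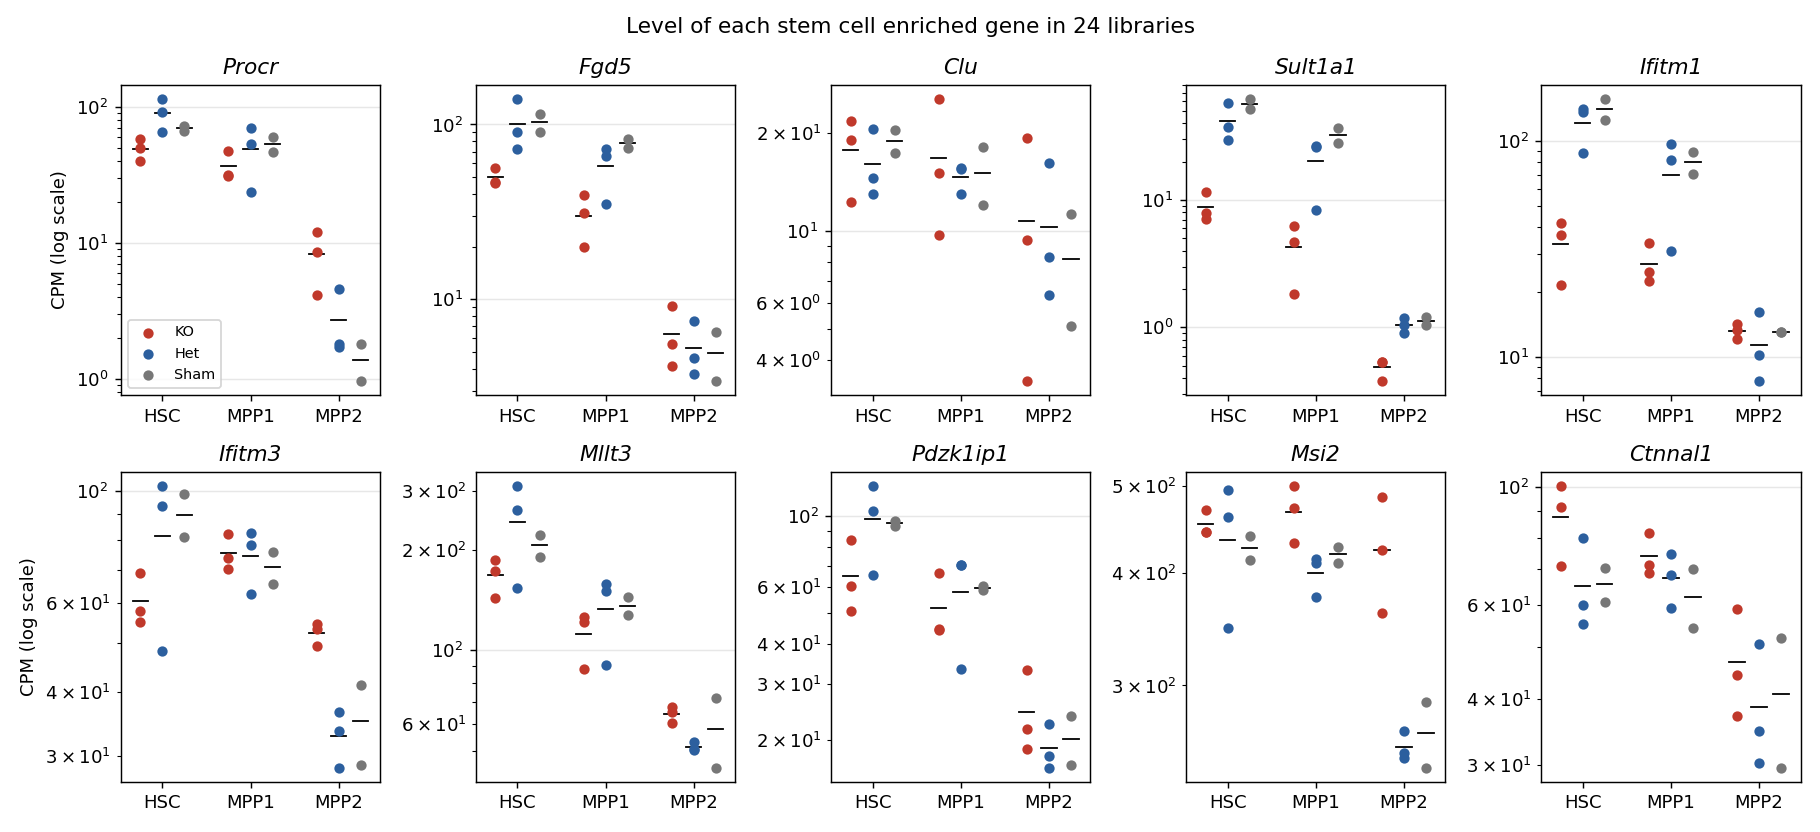
CPM (log axis) of the 10 genes in the 24 libraries, 1 panel per gene with its own scale, 1 point per library, and the group mean as a bar. In HSC all KO points of Sult1a1 (7.05 to 11.6) and Ifitm1 (21.5 to 41.7) lie under all Het and Sham points, and in MPP2 all KO points of Msi2 (361 to 487) lie above them.

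In MPP1, 1 of the 10 genes fell in KO against Het, Sult1a1, at 0.208 times its Het level, and 0 rose. In this comparison 0.0559% of all genes passed, 0.0233% with a lower and 0.0326% with a higher level. The log2 change was below 0 for 6 of 10, with a median of -0.21, against -0.11 over all genes. Sult1a1 stood at 1.84, 6.28 and 4.68 CPM in KO, 8.30, 26.2 and 26.8 in Het and 36.8 and 28.0 in Sham. Its KO values were below all others, with a log2 change of -2.27 ± 0.398 (adjusted p = 0.0217, edgeR). The call was lost without KO library 1 (adjusted p = 0.104), KO library 4 (0.0993), Het library 2_3 (0.112) or Het library 4 (0.178), and in a fit of the MPP1 libraries alone (0.195), with log2 changes of -1.88 to -2.34 in the fits without a library.

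Ifitm1 stood in MPP1 at 22.6, 24.9 and 33.7 CPM in KO, 31.1, 81.8 and 96.7 in Het and 88.9 and 70.6 in Sham. Here Het library 1 lay within the KO range. The log2 change of -1.37 ± 0.355 did not pass (adjusted p = 0.256, edgeR), and without that Het library it did. MPP1 Het library 1 was the lowest of its group for 8 of the 10 genes. In it 17 genes known to be active in progenitors summed to 4745 CPM. Het libraries 2_3 and 4 had 2181 and 2533, and KO had 3218 to 5000. Its sum of 12 megakaryocyte markers was 1567 CPM, against 606.4 and 923.2 in the same Het libraries and 1190 to 1712 in KO. The part of these sums in the member levels was not tested. Fgd5 was at 19.9 to 39.3 in KO and 35.3 to 72.9 in Het (-0.95, adjusted p = 0.525). Besides Sult1a1, which was lower without overlap (13.2% of all genes were), Msi2 was higher without overlap, at 432 to 501 in KO against 376 to 415 in Het (8.49% of all genes were, log2 change 0.23, adjusted p = 0.611). For Procr, Mllt3, Pdzk1ip1, Ifitm3, Clu and Ctnnal1 the log2 changes lay between -0.42 and 0.19 and the adjusted p between 0.711 and 0.982.

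In MPP2, 1 of the 10 genes rose in KO against Het, Msi2, at 1.66 times its Het level, and 0 fell. Of all genes, 0.415% passed, 0.378% with a higher and 0.0373% with a lower level. Msi2 stood at 487, 424 and 361 CPM in KO, 249, 267 and 253 in Het and 243 and 288 in Sham. The lowest KO library was above the highest of the other 5. The log2 change was 0.73 ± 0.139 (adjusted p = 0.00727, edgeR), so the KO level in MPP2 was near that in HSC. Without KO library 1 the adjusted p was 0.131 (log2 change 0.62), and without Het library 1 it was 0.0709 (0.71). In the deposited normalized table, which was tested with limma, it was 0.0643.

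The log2 change in MPP2 was above 0 for 9 of the 10 genes, with a median of 0.30, against -0.06 over all genes. Procr stood at 8.65, 12.1 and 4.12 CPM in KO, 1.82, 4.59 and 1.71 in Het and 0.972 and 1.80 in Sham. KO library 4 and Het library 2_3 overlapped, and the log2 change of 1.64 ± 0.467 did not pass (adjusted p = 0.280, edgeR). Ifitm3 stood at 54.7, 49.4 and 53.5 CPM in KO, 28.4, 36.5 and 33.5 in Het and 28.7 and 41.4 in Sham. It did not overlap, yet its log2 change of 0.68 ± 0.199 did not pass (adjusted p = 0.209, edgeR). Mllt3 was also higher without overlap, at 60.6 to 67.5 in KO and 50.2 to 53.2 in Het (0.33, adjusted p = 0.993). Such separation upwards was seen for 3 of the 10 genes and for 9.06% of all genes.

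Sult1a1 went the other way in MPP2, where it was scarce. It stood at 0.535, 0.539 and 0.380 CPM in KO (24, 19 and 12 counts), 1.05, 1.19 and 0.905 in Het (34, 32 and 36 counts) and 1.21 and 1.05 in Sham. It was the only member lower without overlap (5.6% of all genes were), with a log2 change of -1.09 ± 0.455 that did not pass (adjusted p = 0.753, edgeR). Ifitm1 was at 12.1 to 14.3 in KO and 7.78 to 16.3 in Het (0.22, adjusted p = 0.993). Fgd5, Clu, Pdzk1ip1 and Ctnnal1 had log2 changes between 0.05 and 0.37 and overlapping groups.

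**Figure D3:**
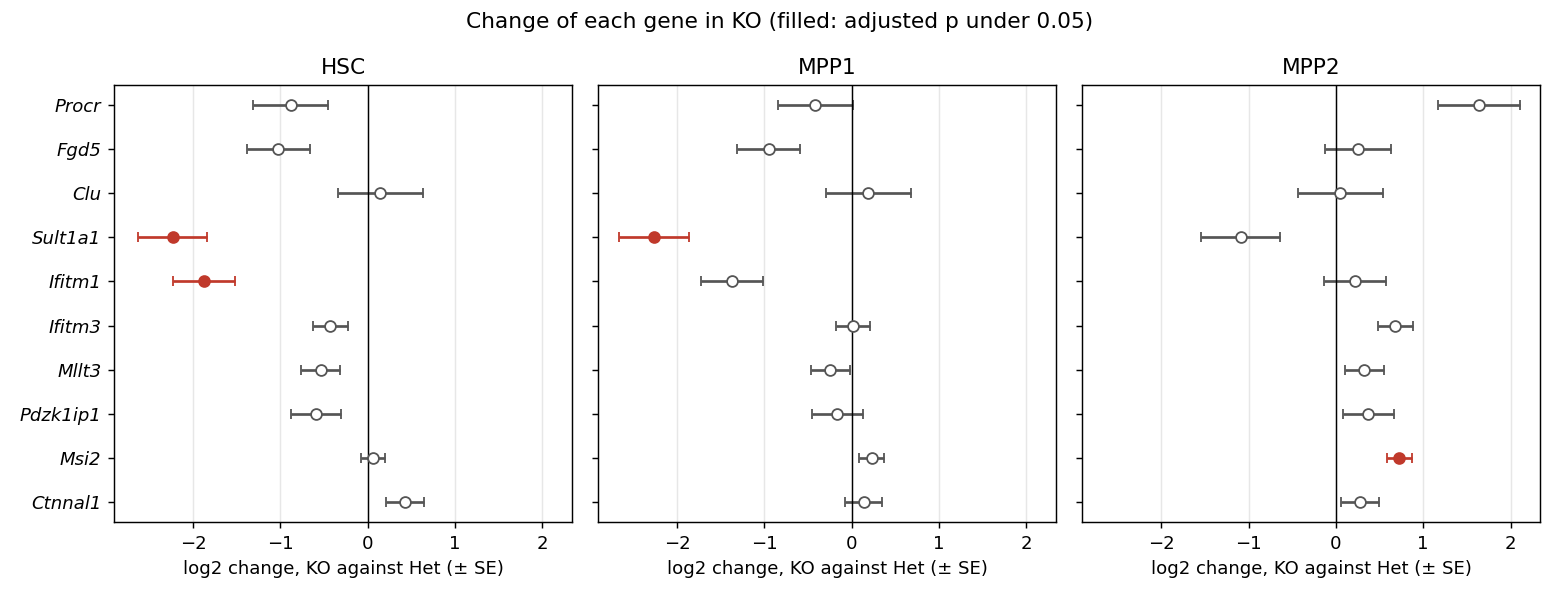
Log2 change of KO against Het for the 10 genes in HSC, MPP1 and MPP2, with bars of 1 approximate SE on each side. Filled points passed the adjusted threshold, Sult1a1 and Ifitm1 below 0 in HSC, Sult1a1 below 0 in MPP1 and Msi2 above 0 in MPP2.

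The KO effect was set against itself between populations. The model took the 24 libraries as independent. The same library numbers recur in each population, and whether such libraries share mice was not tested. MPP2 Het library 1 lay below its group mean for 9 members, as HSC Het library 1 did for 10 and MPP1 Het library 1 for 8. MPP2 Het library 1 was the lowest of its group for only 4 members. None of the 10 genes passed for MPP2 minus HSC by edgeR, where 0.0326% of all genes did, and 7 of the 10 had an unadjusted p under 0.05, as did 7.29% of all genes. The difference of the log2 changes was 2.52 ± 0.636 for Procr (adjusted p = 0.289, edgeR), 2.09 ± 0.502 for Ifitm1 (adjusted p = 0.244), 1.11 ± 0.281 for Ifitm3 (adjusted p = 0.205) and 0.67 ± 0.196 for Msi2 (adjusted p = 0.375). It was 1.28 for Fgd5, 1.14 for Sult1a1, 0.96 for Pdzk1ip1 and 0.86 for Mllt3, with adjusted p between 0.573 and 0.715. The median was 1.03, against -0.10 over all genes. DESeq2 called Procr and Ifitm1 among 67 genes in all, a fit of the HSC and MPP2 libraries alone called Ifitm1 among 10, and the edgeR fit without HSC Het library 1 called Ifitm3 among 50. For MPP1 minus HSC, 0 genes passed of all tested (1044, or 4.87%, had an unadjusted p under 0.05, 0 of them members), and for MPP2 minus MPP1, 0 passed (512, or 2.39%, had one, 5 of them members).

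Against Sham, which shares its KO libraries with the comparison above, Sult1a1 and Ifitm1 fell in HSC KO, with log2 changes of -2.69 ± 0.422 (adjusted p = 0.00349, edgeR) and -2.08 ± 0.386 (adjusted p = 0.0111). In that comparison 2.28% of all genes passed, 0.382% with a lower and 1.9% with a higher level. KO was lower without overlap for 7 of the 10 genes (10.2% of all genes) and higher for Msi2 and Ctnnal1 (15.8%). In MPP1 only Sult1a1 fell (-2.93 ± 0.429, adjusted p = 0.00383, edgeR), where 0.121% of all genes passed, 0.0419% with a lower and 0.0792% with a higher level. KO was lower without overlap for 4 of the 10 genes (20% of all genes) and higher for Msi2 (18.6%). In MPP2 only Msi2 rose (0.68 ± 0.158, adjusted p = 0.0357, edgeR), where 0.629% passed, 0.489% with a higher and 0.14% with a lower level. Procr had a log2 change of 2.60 ± 0.582 there (adjusted p = 0.0557). Procr, Ifitm3 and Msi2 were higher without overlap (13.6% of all genes) and Sult1a1 lower (9.87%). The calls of Ifitm1 in HSC (without KO library 1, 0.0714, or Sham library 2_3, 0.154), of Sult1a1 in MPP1 (without Sham library 2_3, 0.0920) and of Msi2 in MPP2 (without KO library 1, 0.263, KO library 2_3, 0.108, Sham library 2_3, 1, or Sham library 4, 0.0637) were lost without those libraries. The call of Sult1a1 in HSC held in 13 of 13 alternatives, with adjusted p up to 0.0319.

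Het and Sham did not differ at the threshold for any member in any population by edgeR, nor did any gene, which makes 0% of all genes. At an unadjusted p under 0.05 there were 0 members in each population, where 1485 genes had one in HSC (6.92%), 207 in MPP1 (0.965%) and 1141 in MPP2 (5.32%). DESeq2 called 0 members as well, and 79, 5 and 24 genes in all. The log2 changes of the 10 genes lay between -0.46 and 0.38 in HSC, between -0.67 and 0.12 in MPP1 and between -0.20 and 0.96 in MPP2, where the highest was Procr.

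A list of 45 other genes known as enriched in stem cells was read beside the 10. Like the members it was chosen with earlier results of these data known, so it is not an independent check. It also holds Slamf1 and Ly6a, genes of the surface proteins used in the sort. In HSC, 3 of the 45 fell in KO against Het and 0 rose. They were Plxdc2, a plexin-domain membrane protein (log2 change -2.09 ± 0.305, adjusted p = 0.00257, edgeR), Socs2, an inhibitor of cytokine signalling (-1.68 ± 0.361, adjusted p = 0.0248), and Txnip, an inhibitor of thioredoxin (-0.71 ± 0.159, adjusted p = 0.0320). The log2 change was below 0 for 36 of the 45, with a median of -0.35. In MPP1, Plxdc2 alone fell (-1.85 ± 0.304, adjusted p = 0.0178, edgeR). In MPP2, Ptpn14, a tyrosine phosphatase, fell (-1.75 ± 0.290, adjusted p = 0.00304, edgeR), 0 rose, 33 of the 45 lay above 0 and the median was 0.31. DESeq2 called more of the 45, 8 in HSC, 3 in MPP1 and 6 in MPP2, and more of all 21456 genes, 646, 81 and 173. Its calls included Slc22a3 in HSC (log2 change 1.24 by edgeR) and Hlf, Mecom and Mamdc2 in MPP2, which lay above 0. Genes that lay below 0 in HSC and above 0 in MPP2 made up 6 of the 10 members (60%), 28 of the other 45 (62.2%) and 17.2% of all genes tested.

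**Figure D4:**
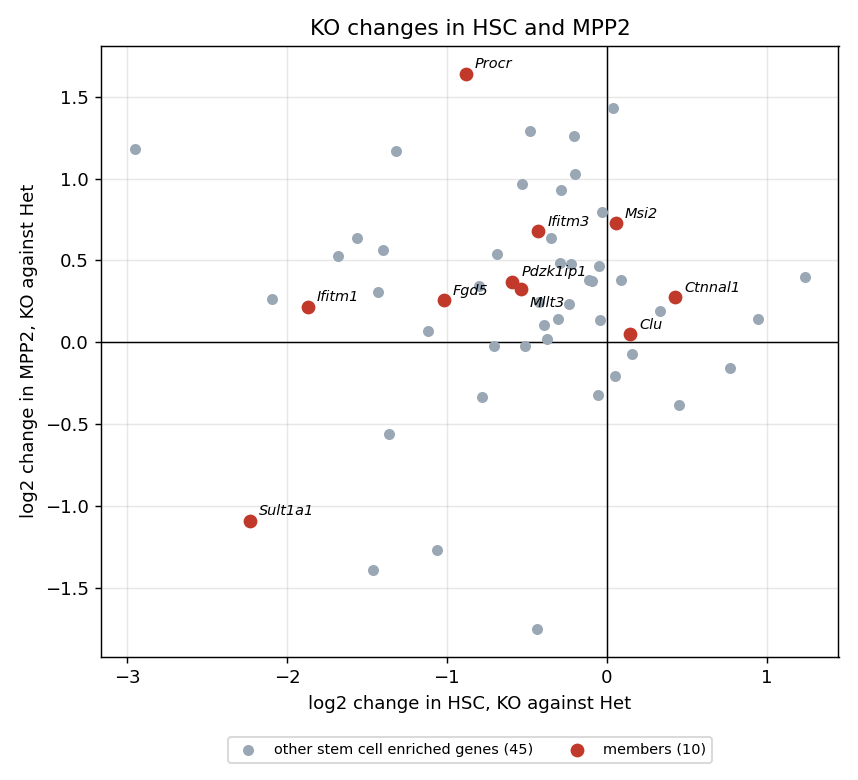
Log2 change of KO against Het in HSC (horizontal axis) and in MPP2 (vertical axis) for the 10 genes (red, named) and for 45 other stem cell enriched genes (grey). The upper left field, lower in HSC and higher in MPP2, holds 6 of the 10 and 28 of the 45.

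Of 25 relatives and neighbours of the members 0 passed in any population by edgeR, while 4 in HSC, 2 in MPP1 and 2 in MPP2 had an unadjusted p under 0.05. Of all genes tested, 3106 (14.5%), 1860 (8.67%) and 1207 (5.63%) had one in the 3 populations. DESeq2 called Ifitm6 and Sult1c2 in HSC and 0 elsewhere. Ifitm2, which lies beside Ifitm1 and Ifitm3, stood in HSC at 84.7 ± 1.53 CPM in KO (SD, n = 3), 78.0 ± 12.6 in Het (n = 3) and 90.8 ± 1.20 in Sham (n = 2), with a log2 change of 0.12 ± 0.145 against Het (adjusted p = 0.814). In MPP2 it was 0.32 ± 0.145 (adjusted p = 0.820). Ifitm5 and Ifitm6 had group means of at most 2.78 CPM in every group. Msi1, the paralog of Msi2, stood at 0.216 to 1.31 CPM over the group means. Mllt1, the paralog of Mllt3, stood at 32.4 to 56.3, and Tal1, the transcription factor gene beside Pdzk1ip1, at 170.1 to 242. Of 24 interferon response genes 0 passed in HSC, MPP1 or MPP2 by edgeR, their median log2 changes were -0.15, 0.03 and 0.02, and 4, 4 and 7 had an unadjusted p under 0.05. DESeq2 called 1 of them, Bst2 in MPP2. Their summed level in MPP2 was 850.1 to 914.1 CPM in KO, above Het (670.5 to 778.6) and Sham (708.7 to 738.5) without overlap, and its part in the levels of Ifitm3 and Msi2 there was not tested.

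Markers of other cells moved with some of these comparisons. Of 12 megakaryocyte markers, 2 rose in HSC KO against Het, Selp (log2 change 1.13 ± 0.224, adjusted p = 0.0143, edgeR) and Gp5 (1.60 ± 0.319, adjusted p = 0.0219), and 11 lay above 0. DESeq2 called 7 of the 12. Their summed level was 1110 to 1524 CPM in the HSC KO libraries, against 443 to 666.3 in Het and 560.5 to 582.2 in Sham, and its part in the lower Sult1a1 and Ifitm1 was not tested. The sum of 17 genes known to be active in progenitors was also higher in every HSC KO library, at 2501 to 4395 CPM. It was 1493 to 2312 in Het and 1528 to 1683 in Sham. Of the 17, however, 10 lay below 0 against Het and 7 above, with a median log2 change of -0.0478. The part of this sum in these results was not tested either. In MPP2 the megakaryocyte sums were 918.4 to 1722 in KO and 792 to 1882 in Het. Of 12 neutrophil markers 0 passed by edgeR or DESeq2 (1 had an unadjusted p under 0.05, in MPP2), but 11 lay below 0 in HSC, 12 in MPP1 and 12 in MPP2. Their sums were 34.5 to 131.6 CPM in HSC KO and 30.7 to 553.1 in HSC Het, 65.5 to 127.5 and 104.5 to 447 in MPP1, and 15.0 to 101.8 and 120.7 to 934.6 in MPP2, where KO and Het did not overlap. Their part in the level of Msi2 in MPP2 was not tested. Procr and Fgd5 are also active in endothelium, whose markers Cdh5 and Plvap stood at 0.564 to 2.07 and 0.588 to 6.09 CPM over the group means, and Kdr and Emcn at 5.71 to 16.8 and 2.11 to 26.6. These ranges are CPM of the plain library total, without the scaling used for the sums. Of 12 stroma and endothelium markers 0 passed by edgeR or DESeq2 (0 in HSC, 2 in MPP1 and 2 in MPP2 had an unadjusted p under 0.05), with sums of 50.4 to 107.7 CPM in HSC KO and 60.7 to 133.4 in HSC Het. Of the 12, 8 lay below 0 in HSC, 12 in MPP1 and 11 in MPP2. Their sums did not overlap in MPP1 (43.2 to 70.7 in KO, 94.65 to 117.3 in Het) or in MPP2 (51.1 to 76.3 and 78.4 to 108.6), and their part in the member levels was not tested. Of 9 erythroid, 8 B cell, 8 T and NK cell and 8 macrophage markers tested, 0 passed in any population by edgeR. At an unadjusted p under 0.05 there were 4 erythroid markers in HSC, 2 in MPP1 and 1 in MPP2 and 0 of the others. DESeq2 called 1, Car1 in HSC, which stood at 0.655 CPM of the plain library total in KO, 74.4 in Het and 0.988 in Sham. The part of erythroid cells in the Het levels was not tested. The haemoglobin gene Hba-a1 had 0 CPM in every group, also in MPP2, where Car1 stood at 119 to 390. Its 0 therefore does not show that erythroid cells were absent.

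Levels were compared over all 24 libraries as a description. Among pairs of members the Pearson correlation of log2 CPM was highest for Sult1a1 and Ifitm1 (0.954), Mllt3 and Pdzk1ip1 (0.952) and Procr and Fgd5 (0.951), and lowest for Clu and Msi2 (0.321). Among 10125 other genes with a mean of at least 5 CPM, the most alike was Mecom for Procr (0.985), Gimap8 for Fgd5 (0.988), Rtkn for Sult1a1 (0.978), Trim47 for Ifitm1 (0.960), Asah2 for Ifitm3 (0.933), Sft2d2 for Mllt3 (0.960), Tsc22d1 for Pdzk1ip1 (0.976), Nab2 for Msi2 (0.953) and Agpat3 for Ctnnal1 (0.889). The 24 points share 3 populations, in which most of these genes are high in HSC and low in MPP2.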

How the data were processed

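RNA was measured in 24 libraries of sorted HSC, MPP1 and MPP2 cells, 3 KO, 3 Het and 2 Sham in each population, grouped by the labels. Libraries were rRNA-depleted, stranded and read as pairs of 50 bp, per the labels. The authors deposited raw read counts per gene for each library, 23364 genes, and a table of a normalized signal for 12186 genes, whose columns sum to 960790 to 1027629. The submitters' processing notes name TopHat2 2.0.9 with Bowtie 1.0.0, Trimmomatic 0.33 and featureCounts, besides FastQC and edgeR under R 3.1.2, and the build mm9. How the signal was normalized is not given in the sources used here.

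Counts were fitted in R 4.3.3 with edgeR 4.0.16 in 1 quasi-likelihood model of 9 group means, after filterByExpr (least count 10, 21456 genes left) and TMM scaling, with 15 residual degrees of freedom and a common dispersion of 0.466. Tests were two-sided F tests with Benjamini-Hochberg adjustment across the tested genes in each of 12 comparisons. SE is the absolute log2 change over the square root of F, an approximation. log2 CPM used a prior count of 2. The fitting was tested on simulated data drawn with a dispersion well below the common dispersion above. That test does not show how well changes are found at the spread of these data. DESeq2 1.42.0 and limma 3.58.1 served as alternatives. No 2 libraries held identical counts. The members, the lists and the tests were chosen with earlier results of these data known. Of each list the members past the threshold in KO against Het were named, up to 4 per population, and the values of relatives and neighbours were open to naming. The gene most alike to Clu is not reported here.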

Additional observations from a re-analysis of the deposited data

How the results depend on the processing

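The counts of members past the threshold moved with the processing. For KO against Het in HSC (2), the fit of the HSC libraries alone gave 4, DESeq2 3, leaving out both libraries with few detected genes gave 0, and leaving out 1 library gave 0 to 4. Over all genes this comparison had 132 calls as reported, 4 without both such libraries, 12 with KO library 1 of HSC removed, and 13 or 374 with Het library 2_3 or Het library 1 removed. For KO against Sham in HSC (2) the deposited table gave 4, leaving out both such libraries 1, and 1 library 1 to 2. For KO against Het in MPP1 (1) DESeq2 gave 2, the fit of MPP1 alone 0 and leaving out 1 library 0 to 2. For KO against Sham in MPP1 (1) the deposited table gave 3, DESeq2 3, MPP1 alone 0 and leaving out 1 library 0 to 1. For KO against Het in MPP2 (1) the table gave 0, DESeq2 2 (with Procr) and leaving out 1 library 0 to 1. For KO against Sham in MPP2 (1) no filter gave 0, limma-trend, the deposited table and DESeq2 each gave 2, MPP2 alone 0 and leaving out 1 library 0 to 2. For the KO effect in MPP2 minus HSC (0) DESeq2 gave 2, both populations alone 1 and leaving out 1 library 0 to 1. The other counts stayed at 0. With 1 Sham library left out, the remaining library is taken to vary like the other groups. Fits with fewer libraries leave fewer residual degrees of freedom, and they gave both lower and higher counts. The cause of these differences was not tested.

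The deviations of same-numbered KO and Het libraries did not settle whether these are paired. Correlations of their deviations were -0.338 to 0.0479 in HSC, 0.0153 to 0.0738 in MPP1 and 0.00624 to 0.33 in MPP2. Of 6 libraries in each population, 1, 4 and 4 correlated best with their own number. In MPP2 the same-numbered libraries 2_3 and 4 had 0.33 and 0.224. There KO 2_3 with Het 4 had -0.268, and KO 4 with Het 2_3 had -0.286. The replicate block gave 3 in KO against Het in HSC (Fgd5 added, log2 change -0.97, adjusted p = 0.0306), 2 in KO against Het in MPP1 (Ifitm1 added), 2 in KO against Sham in MPP1, 2 in KO against Sham in MPP2 and 1 (Ifitm1) for the KO effect in MPP2 minus HSC. Over all genes it moved the calls of KO against Het in HSC from 132 to 726.

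Of the log2 changes of single genes, 9 changed sign with 1 library left out and 8 under other alternatives. Reversed were Msi2 in HSC in the deposited table (-0.13), Ifitm3 in MPP1 with RLE scaling (-0.0378), DESeq2 (-0.0377) and the table (-0.15), Ctnnal1 in MPP1 in the table (-0.0336), and Clu in MPP2 with the block (-0.0312), limma-trend (-0.15) and the table (-0.0389). The median over all genes in MPP1 was -0.11 as reported and -0.00392 in the table, which holds fewer genes. With 1 library left out, KO against Het ranged over -0.0282 to 0.36 for Clu in HSC, -0.24 to 0.49 in MPP1 and -0.69 to 0.54 in MPP2, -0.12 to 0.59 for Fgd5 in MPP2, -0.0945 to 0.0983 for Ifitm3 in MPP1 and -0.0799 to 0.16 for Msi2 in HSC. Over all alternatives KO against Het stayed within -2.47 to -1.92 for Sult1a1 in HSC (past the threshold in 11 of 14), -2.07 to -1.52 for Ifitm1 in HSC (10 of 14), -2.66 to -1.88 for Sult1a1 in MPP1 (8 of 13) and 0.58 to 0.83 for Msi2 in MPP2 (10 of 13). Groups of 2 or 3 pools limit what could be called, and Sult1a1 in MPP2 rests on 12 to 41 counts per library.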

Other observations

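The list of 17 genes known to be active in progenitors gave 0 calls in HSC and in MPP1 by edgeR and by DESeq2 (3 and 0 had an unadjusted p under 0.05, of 3106 and 1860 genes in all). Their summed level in HSC was 2501 to 4395 CPM in KO, 1493 to 2312 in Het and 1528 to 1683 in Sham. Yet 10 of the 17 had a log2 change below 0 there in KO against Het, with a median of -0.0478. In MPP2, 2 of the 17 fell in KO against Het and 0 rose. They were Satb1, a chromatin organiser of lymphoid cells (25.3 CPM in Het and 3.90 in KO, log2 change -2.70 ± 0.533, adjusted p = 0.0166), and Irf8, a transcription factor of the monocyte and dendritic lines (23.1 and 3.07 CPM, -2.91 ± 0.646, adjusted p = 0.0382). The median log2 change of the 17 was -1.08 in MPP2, against -0.06 over all genes. DESeq2 called Myb as well. The summed level of the 17 in MPP2 was 6167 to 7855 CPM in KO, 6852 to 9359 in Het and 6481 to 7128 in Sham. Het library 2_3 had the highest sum (9359). How far single Het libraries carry the falls of Satb1 and Irf8 is not reported here. In the same population Msi2 rose, and Flt3 and the neutrophil marker sum were spread widely over the Het libraries.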
